A study of Mus musculus with 2 samples.

Results

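The genes examined were 10 factors of the immediate early response, namely Fos, Fosb, Fosl2, Jun, Junb, Jund, Egr1, Atf3, Maff and Ier2, out of 31054 features counted. They were named by symbol, by a rule that uses no measured value, though with earlier results of these data known, and were followed in liver cells that fall into 3 classes, stellate, endothelial and Kupffer. Fos, Fosb and Fosl2 encode FOS subunits of the AP-1 transcription factor, and Jun, Junb and Jund encode its JUN subunits. FOS proteins do not pair with each other and bind DNA as dimers with a JUN protein, while JUN proteins can also pair among themselves. Egr1 encodes a zinc finger factor, Atf3 a stress-induced factor of the ATF family, Maff a small MAF protein without a transactivation domain and Ier2 a nuclear protein of the same early response. Transcription of such genes starts within minutes of growth factors, cytokines, stress or tissue dissociation and needs no new protein, and their short-lived mRNAs fade soon after. In stellate cells, the vitamin A-storing pericytes of the liver that make collagen after injury, AP-1 is known to act on genes of matrix remodelling and inflammation.

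The cells came from male mice on the C57BL/6 background that had received carbon tetrachloride (CCl4), a hepatotoxin that produces fibrosis, for 4 weeks, together with tamoxifen and diphtheria toxin in both genotypes. The p16-Alb-LRTD mice were heterozygous for R26-CAG-LSL-RSR-tdTomato-2A-DTR together with the drivers p16-CreERT2 and Alb-DreERT2, so that cells in which both the p16 promoter and the albumin promoter had been active express the diphtheria toxin receptor and are removed by the toxin. The p16-LRTD mice carry no Alb-DreERT2 and served as controls. There was 1 library per genotype, and how many mice were pooled into it and their age are not stated. The study saw very mild fibrosis away from the central vein region only in Alb-LRTD and p16-Alb-LRTD mice. As a speculation, it raises that its stop cassette may not fully suppress the receptor. The part of such leakage in the differences between these libraries was not tested. Cells were released by perfusion and stirring with pronase and collagenase at a warm temperature and enriched on a density gradient, and whole molecules were counted from their 3' ends with unique molecular identifiers (UMIs). The comparison asks how the early response genes of the remaining liver cells differ when hepatocytes with high p16 expression have been removed. With 1 library per genotype no test is possible, every difference given here is one between 2 libraries, and all intervals are 95% intervals that cover counting error only.

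The p16-LRTD library held 11149 barcodes with 193746596 UMIs and the p16-Alb-LRTD library 8806 barcodes with 162219167 UMIs, of which 9004 and 7416 passed the limits on mitochondrial share, genes and UMIs. A stellate cell was one with at least 15 UMIs of Lrat, Ecm1, Hgf and Reln per 10000 UMIs, an endothelial cell one with at least 8 of Kdr, Stab2 and Ptprb, and a Kupffer cell, the resident macrophage of the liver, one with at least 8 of Clec4f, Cd5l, Vsig4 and Csf1r, and a cell past a single threshold was kept. This gave 7852 and 6621 stellate cells, 430 and 283 endothelial cells and 283 and 178 Kupffer cells in p16-LRTD and in p16-Alb-LRTD. Markers outside the rule fitted these names. Dcn, a proteoglycan of stellate cells, lay at 18430 and 22186 CPM (counts scaled to 1000000 UMIs of the class) in stellate cells and at 222 to 319 CPM elsewhere, Pecam1 was at 619 and 660 CPM in endothelial cells, and C1qa was at 3317 and 4058 CPM in Kupffer cells. Median depth was 17024.5 and 18136 UMIs in stellate cells, 11781 and 11992 in endothelial cells and 19514 and 25101.5 in Kupffer cells, so that the Kupffer libraries differed most. The libraries shared 95 barcodes, and leaving these out moved none of the medians given below by more than its counting interval. Less RNA of a gene in every cell and fewer cells that transcribe it cannot be told apart in a class total, for which reason shares of cells are given further on.

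All of these genes but Egr1 are placed here by GENCODE vM21 on GRCm38, the assembly also called mm10. Fos lies on chromosome 12 from 85473890 to 85477273 on the plus strand, Fosb on chromosome 7 from 19302696 to 19310051 on the minus strand and Fosl2 on chromosome 5 from 32135801 to 32157842 on the plus strand. Jun lies on chromosome 4 from 95049034 to 95052222 on the minus strand. Junb (84974484 to 84978718, minus strand), Jund (70698949 to 70700616, plus strand) and Ier2 (84661331 to 84662852, minus strand) all lie on chromosome 8. Atf3 lies on chromosome 1 from 191170296 to 191218039 on the minus strand and Maff on chromosome 15 from 79346621 to 79359076 on the plus strand. Jun, Jund and Ier2 consist of 1 exon each. Overlapping genes were found for 4 of the 10, Junos at Jun, Prdx2 at Junb, Gm11175 at Jund and Gm24748 at Atf3, each on the opposite strand.

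Promoters, taken as 250 bases before to 50 after the start site in RefSeq on GRCm38.p6, were matched for 8 of the 10 genes, with more than 1 start for Maff. They were searched on both strands for TGACG, the core of the cAMP response element bound by CREB and ATF factors, for its palindromic form TGACNTCA, for the AP-1 element TGANTCA, for the CArG box bound by serum response factor, and for GAANNTTC, a unit of heat shock elements. TGACNTCA and TGACG overlap where the palindrome reads TGACGTCA. TGACG was present for Atf3, Fos, Fosb, Junb and Maff, 5 of 8 genes, and in 20.8% of all 32851 promoters. TGACNTCA was present for Jun and Maff, against 8.83% of all promoters, and GAANNTTC for Fosl2 and Jun, against 7.86%. TGANTCA and the CArG box were present for none of the 8, against 7.81% and 1.63% of all promoters, which says only that these letters are not in this window. The 140 bases before the start site are shown for the 5 genes that hold TGACG or TGACNTCA there outside annotated exons, so that these elements can be read in their context, 5′ to 3′ on the gene's strand, with TGACG or TGACNTCA in capitals. The last bases of the Fosb stretch reach into its first exon in GENCODE.
Fos (chr12:85473750-85473889, plus strand): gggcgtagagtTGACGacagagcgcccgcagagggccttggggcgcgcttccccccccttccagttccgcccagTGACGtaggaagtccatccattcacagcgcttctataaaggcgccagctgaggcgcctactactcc
Fosb (chr7:19310046-19310185, minus strand): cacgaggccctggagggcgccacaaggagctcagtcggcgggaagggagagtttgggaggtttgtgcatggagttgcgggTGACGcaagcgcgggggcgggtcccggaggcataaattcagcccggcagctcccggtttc
Junb (chr8:84978749-84978888, minus strand): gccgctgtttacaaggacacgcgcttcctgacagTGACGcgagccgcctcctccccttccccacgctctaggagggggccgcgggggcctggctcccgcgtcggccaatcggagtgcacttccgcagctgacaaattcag
Jun (chr4:95052223-95052362, minus strand): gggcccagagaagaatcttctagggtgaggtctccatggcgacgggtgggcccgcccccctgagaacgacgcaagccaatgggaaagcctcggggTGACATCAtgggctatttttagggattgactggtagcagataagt
Maff (chr15:79347380-79347519, plus strand): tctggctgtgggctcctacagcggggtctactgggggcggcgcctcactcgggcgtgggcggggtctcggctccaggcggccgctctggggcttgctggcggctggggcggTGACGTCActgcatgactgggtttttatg
Counted back from the start site, the first capital stands at -129 and again at -66 for Fos, at -60 for Fosb, at -106 for Junb, at -45 for Jun and at -29 for Maff. A further Maff start, whose stretch is not shown, has TGACG at -122 and TGACNTCA at -45. These matches are a description of the sequence, and no binding was measured.

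In stellate cells, all 10 genes were higher in p16-Alb-LRTD than in p16-LRTD. Their median log2 ratio was 0.64, while the median of all 10179 genes with a mean of at least 5 CPM was -0.05 and 39.3% of them lay above 0. Together the 10 genes made up 6740 CPM (0.674% of all UMIs) in p16-LRTD cells and 10156 CPM (1.02%) in p16-Alb-LRTD. At least 1.5-fold higher were Fos, Fosl2, Junb, Egr1 and Maff, 5 of the 10, where 3.03% of all genes were that much higher. The count was 7 with TMM or median-of-ratios scaling, and 6 with the mean of per-cell CPM or with doubled marker thresholds. None was 2-fold higher, a size that 0.923% of all genes reached. In the other direction, 0 of the 10 genes were 1.5-fold lower in any class, where 3.05% of all genes in stellate, 13.5% in endothelial and 6.83% in Kupffer cells were that much lower and 0.943%, 3.65% and 1.87% at least 2-fold lower. With the mean of per-cell CPM, Maff in endothelial cells did pass 1.5-fold lower, at a log2 ratio of -0.592.

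Of the FOS subunits, Fos was counted at 1347 CPM (1341 to 1353) in p16-LRTD cells and at 2261 CPM (2252 to 2269) in p16-Alb-LRTD cells, for a log2 ratio of 0.75 (0.74 to 0.75). Fosb, whose product has a long C-terminal activation domain like that of FOS, stood at 898 and 1310 CPM, a log2 ratio of 0.54 (0.53 to 0.56). Fosl2, which encodes FRA-2, a subunit lacking that domain and associated with fibrosis, stood at 40.3 and 67.4 CPM, with a log2 ratio of 0.74 (0.69 to 0.79). The ratios of Fos and Fosl2 were thus alike within counting error, and that of Fosb was smaller.

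Of the JUN subunits, Jun was counted at 1569 CPM (1562 to 1575) in p16-LRTD cells and at 2253 CPM (2245 to 2262) in p16-Alb-LRTD cells, for a log2 ratio of 0.52 (0.51 to 0.53). Junb, a subunit that activates less than JUN and can oppose it, stood at 930 and 1567 CPM, a log2 ratio of 0.75 (0.74 to 0.76). Jund, which unlike most of the family is transcribed steadily in resting cells, stood at 1030 and 1284 CPM, a log2 ratio of 0.32 (0.31 to 0.33). Jund therefore had the lowest ratio of the 10, and Junb had the highest ratio among the JUN genes, with intervals that did not overlap.

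Egr1 stood at 540 CPM (536 to 543) in p16-LRTD cells and at 882 CPM (877 to 887) in p16-Alb-LRTD cells, for a log2 ratio of 0.71 (0.70 to 0.72). Atf3 stood at 123 and 182 CPM, a log2 ratio of 0.57 (0.54 to 0.60). Maff had the fewest UMIs, 2799 and 4263, and stood at 19.6 and 34.1 CPM with the highest ratio of the 10, 0.80 (0.73 to 0.87), whose interval overlapped those of Fos, Fosl2 and Junb. Ier2 stood at 244 and 315 CPM, a log2 ratio of 0.37 (0.35 to 0.39). The 2 genes with the smallest ratios, Jund and Ier2, differed from each other by more than counting error.

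**Figure D1:**
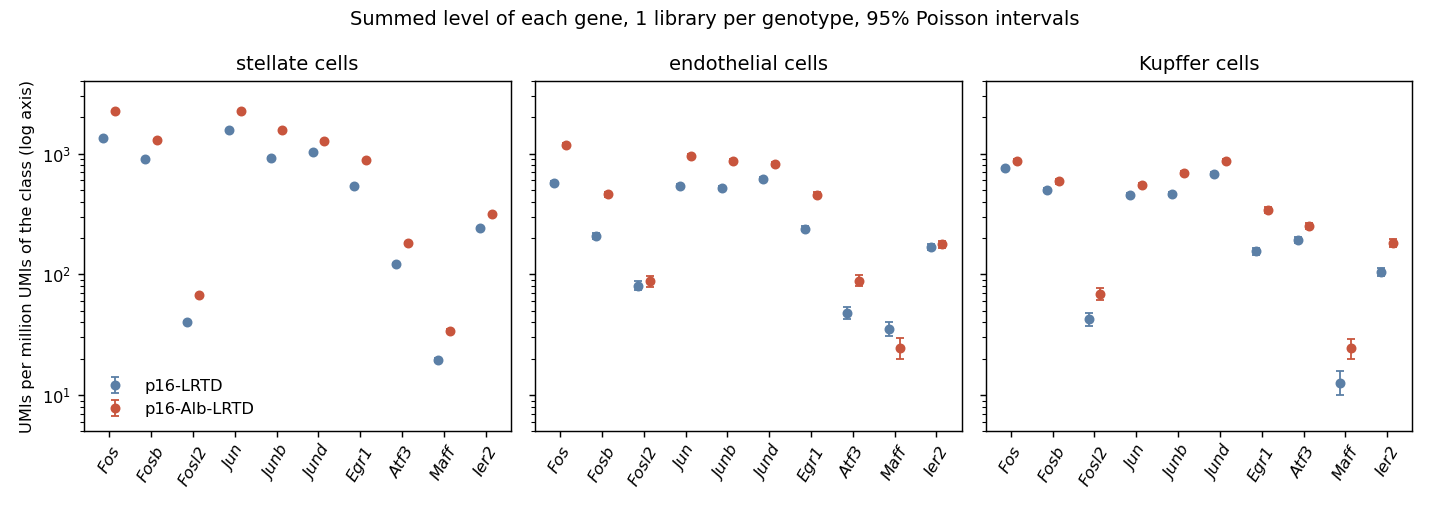
Level of each of the 10 genes in stellate, endothelial and Kupffer cells, as CPM on a log axis, with p16-LRTD in blue and p16-Alb-LRTD in red and bars for 95% Poisson intervals (1 library per genotype). All red points lie above the blue ones in stellate and Kupffer cells, whereas in endothelial cells Maff has the blue point on top (35.1 against 24.4 CPM).

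In endothelial cells, which line the sinusoids, 7 of the 10 genes were higher in p16-Alb-LRTD, 1 was lower and the intervals of 2 reached across 0. Of all genes measured, 39.7% lay above 0, whatever their interval. The median log2 ratio was 0.79, against -0.10 for all 9858 genes measured, and 6 of the 10 genes were at least 1.5-fold higher, against 6.44% of all genes (9.83% with a minimum of 1 CPM). Fosb had the highest ratio, with 209 CPM (198 to 221) in p16-LRTD cells and 460 CPM (439 to 481) in p16-Alb-LRTD cells, for a log2 ratio of 1.14 (1.03 to 1.24). Fos followed with 570 and 1189 CPM, a log2 ratio of 1.06 (0.998 to 1.12), and these were the only 2 genes at least 2-fold higher, against 2% of all genes. Egr1 was at 239 and 457 CPM (0.93, 0.83 to 1.03) and Atf3 at 48.3 and 88.9 CPM (0.88, 0.65 to 1.11). Jun was at 543 and 963 CPM (0.83, 0.76 to 0.89), Junb at 518 and 877 CPM (0.76, 0.69 to 0.83) and Jund at 615 and 818 CPM (0.41, 0.34 to 0.48).

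The remaining endothelial values went apart from these. Maff, counted with 216 and 97 UMIs, was at 35.1 CPM (30.6 to 40.1) in p16-LRTD cells and 24.4 CPM (19.7 to 29.7) in p16-Alb-LRTD cells, for a log2 ratio of -0.53 (-0.89 to -0.18). Fosl2 was at 80.4 and 87.6 CPM, with a ratio of 0.12 whose interval ran from -0.08 to 0.32. Ier2 was at 169 and 177 CPM, with a ratio of 0.06 (-0.08 to 0.20), and its sign was the one that depended on the choice of cells. Without the upper limits on genes and UMIs it was -0.051, and over all deposited barcodes -0.031.

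In Kupffer cells all 10 genes were higher in p16-Alb-LRTD, where 42.4% of all genes measured lay above 0. The median log2 ratio was 0.47 against -0.06 for all 9514 genes measured, and 4 of the 10 were at least 1.5-fold higher, against 5.21% of all genes (8.07% with a minimum of 1 CPM). The count was 2 with barcodes past several thresholds kept and 3 without the fifth of cells highest in hepatocyte markers, and it was 5 with either other scaling, with a mitochondrial limit of 10% and with doubled marker thresholds. Egr1 had the highest ratio, with 156 CPM (146 to 166) in p16-LRTD cells and 342 CPM (325 to 360) in p16-Alb-LRTD cells, for a log2 ratio of 1.13 (1.02 to 1.25), and was the only 1 of the 10 to reach 2-fold, against 1.70% of all genes. Maff was at 12.6 and 24.4 CPM (0.95, 0.51 to 1.39) from 75 and 109 UMIs, Ier2 at 105 and 182 CPM (0.79, 0.64 to 0.95) and Fosl2 at 42.4 and 69.1 CPM (0.70, 0.46 to 0.95). Junb stood at 464 and 692 CPM (0.58, 0.50 to 0.65), just under 1.5-fold.

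The 5 remaining genes had smaller ratios in Kupffer cells. Fos was at 760 CPM (738 to 782) in p16-LRTD cells and 870 CPM (843 to 898) in p16-Alb-LRTD cells, for a log2 ratio of 0.19 (0.13 to 0.26). Fosb was at 498 and 588 CPM (0.24, 0.17 to 0.32), Jun at 457 and 549 CPM (0.27, 0.19 to 0.34), Jund at 681 and 876 CPM (0.36, 0.30 to 0.43) and Atf3 at 194 and 250 CPM (0.37, 0.25 to 0.49). Over the alternatives Jund ran from 0.18 to 0.43 and Atf3 from 0.21 to 0.55. The ratios of Fos, Fosb and Jun also varied with the choice of cells or weights. With cells of 10000 to 30000 UMIs alone, Fos was at 0.07, Fosb at 0.01 and Jun at 0.01, and with the mean of per-cell CPM in place of summed counts Fos was at 0.00, Fosb at 0.06 and Jun at 0.14. Without the fifth of cells highest in hepatocyte markers they were larger, at 0.30, 0.41 and 0.36. Maff moved in the other way, to 1.36 with that depth range, and was 0.16 without those cells, so that its value in Kupffer cells rests on few UMIs.

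**Figure D2:**
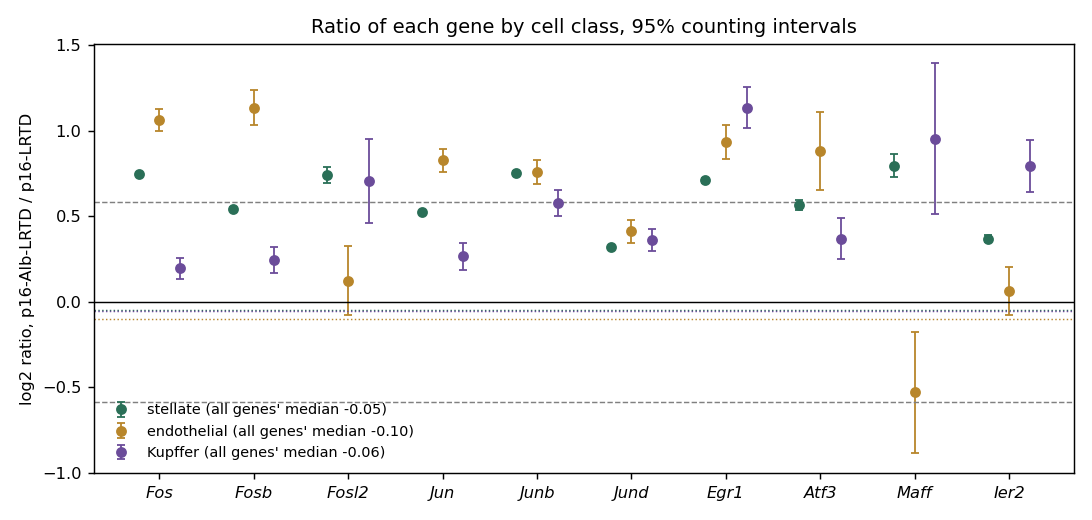
Log2 ratio of p16-Alb-LRTD over p16-LRTD for each gene in stellate (green), endothelial (ochre) and Kupffer (purple) cells, with 95% counting intervals. Dashed lines mark 1.5-fold and dotted lines the median of all genes in each class (-0.05, -0.10 and -0.06), and Maff in endothelial cells is the only point below 0.

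The ratios of a gene differed between classes by more than counting error for most genes. Fos was 0.55 (0.49 to 0.61) higher on the log2 scale in stellate than in Kupffer cells and 0.31 lower than in endothelial cells (difference -0.31, -0.38 to -0.25). Fosb differed in the same order, at 0.30 (0.23 to 0.38) against Kupffer cells and -0.59 (-0.69 to -0.49) against endothelial cells, as did Jun at 0.26 (0.18 to 0.34) and -0.30 (-0.37 to -0.24). Egr1 was lower in stellate cells than in both others, by -0.22 (-0.32 to -0.12) against endothelial and -0.43 (-0.54 to -0.31) against Kupffer cells.

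Of the differences from stellate cells, that of Maff was the largest, with a value of 1.32 (0.97 to 1.68) between stellate and endothelial cells and of -0.15 (-0.58 to 0.28) between stellate and Kupffer cells. Fosl2 differed by 0.62 (0.41 to 0.82) and 0.04 (-0.21 to 0.28) from the same classes, the second again with an interval across 0. Ier2 differed by 0.30 (0.16 to 0.44) from endothelial and by -0.42 (-0.58 to -0.27) from Kupffer cells. Junb was indistinguishable between stellate and endothelial cells, with a difference of -0.01 (-0.08 to 0.06). Jund was the most even of the 10, with differences of -0.09 (-0.16 to -0.02) and -0.04 (-0.11 to 0.02). These are differences between single libraries, and whether they would recur between mice was not tested.

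The classes also differed from one another in level within a library. In p16-LRTD, 7 of the 10 genes were at least 1.5-fold higher in stellate than in endothelial cells and 8 than in Kupffer cells, where 22.6% and 31.2% of all genes were. In p16-Alb-LRTD the counts were 8 and 6, against 25.2% and 32.7%. Fosb differed most between stellate and endothelial cells of p16-LRTD, at a log2 ratio of 2.10 (2.02 to 2.18), and at 1.51 (1.44 to 1.58) in p16-Alb-LRTD. Jun and Egr1 were highest against Kupffer cells of p16-LRTD, at 1.78 (1.72 to 1.83) and 1.79 (1.70 to 1.89), and in p16-Alb-LRTD Jun was at 2.04 (1.98 to 2.09) and Egr1 at 1.37 (1.29 to 1.44).

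Against that pattern, Atf3 was lower in stellate than in Kupffer cells of both libraries, at -0.66 (-0.74 to -0.57) in p16-LRTD cells and -0.46 (-0.54 to -0.37) in p16-Alb-LRTD. Fosl2 was lower in stellate than in endothelial cells, at -0.996 (-1.13 to -0.86) and -0.38 (-0.53 to -0.22), and did not differ from Kupffer cells in either library, at -0.07 (-0.25 to 0.12) and -0.03 (-0.20 to 0.13). Maff lay on different sides in the libraries, being lower in stellate than in endothelial cells of p16-LRTD at -0.84 (-1.04 to -0.63) and higher in p16-Alb-LRTD at 0.48 (0.19 to 0.79). For Maff the order of levels in p16-LRTD was therefore endothelial, stellate and Kupffer, whereas in p16-Alb-LRTD endothelial and Kupffer cells were both at 24.4 CPM, below stellate cells at 34.1 CPM.

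Because AP-1 dimers pair FOS with JUN subunits, the balance of their transcripts was followed as UMIs of one gene per UMI of another. Only differences in such a ratio are read here, since its size depends on how each 3' end is captured. Fos per Jun was 0.859 (0.854 to 0.864) in stellate cells of p16-LRTD and 1.003 (0.998 to 1.01) in those of p16-Alb-LRTD. In endothelial cells it was 1.05 (1.001 to 1.10) and 1.23 (1.18 to 1.29), and in Kupffer cells 1.66 (1.59 to 1.74) and 1.58 (1.51 to 1.67), with overlapping intervals. Fos per Jund went from 1.31 to 1.76 in stellate cells and from 0.926 to 1.45 in endothelial cells, but was 1.12 (1.07 to 1.16) and 0.993 (0.949 to 1.04) in Kupffer cells. Junb per Jun was higher in p16-Alb-LRTD in stellate cells (0.593 and 0.695) and in Kupffer cells (1.02 and 1.26), and was 0.954 (0.908 to 1.001) and 0.910 (0.869 to 0.953) in endothelial cells. Within the summed UMIs of the 10 genes, the share of Fos in stellate cells was 20.0% in p16-LRTD cells and 22.3% in p16-Alb-LRTD, and that of Jund was 15.3% and 12.6%.

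The values per cell showed whether the totals came from few cells. After each cell had been thinned to 5000 UMIs, which left out 16 and 7 shallower stellate cells, the median stellate cell held 32 UMIs of the 10 genes in p16-LRTD cells and 51 in p16-Alb-LRTD. The range between the lower and upper quartiles ran from 19 to 45 and from 34 to 66. The 5th percentile was 6 and 12, and the 95th 63 and 86, so that the distribution of p16-Alb-LRTD lay higher at the bottom as well as at the top. In endothelial cells, of which 12 and 0 were left out, the medians were 12 and 26, while the 10th percentiles were close, at 2 and 4. In Kupffer cells, of which 5 and 1 were left out, the medians were 17 and 21 and the 95th percentiles 38.1 and 37.4, the latter being lower in p16-Alb-LRTD. At least 5 of the 10 genes were detected in 88.3% of stellate cells in p16-LRTD cells and 95.1% in p16-Alb-LRTD, in 62.2% and 84.5% of endothelial cells, and in 77.3% and 89.8% of Kupffer cells.

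**Figure D3:**
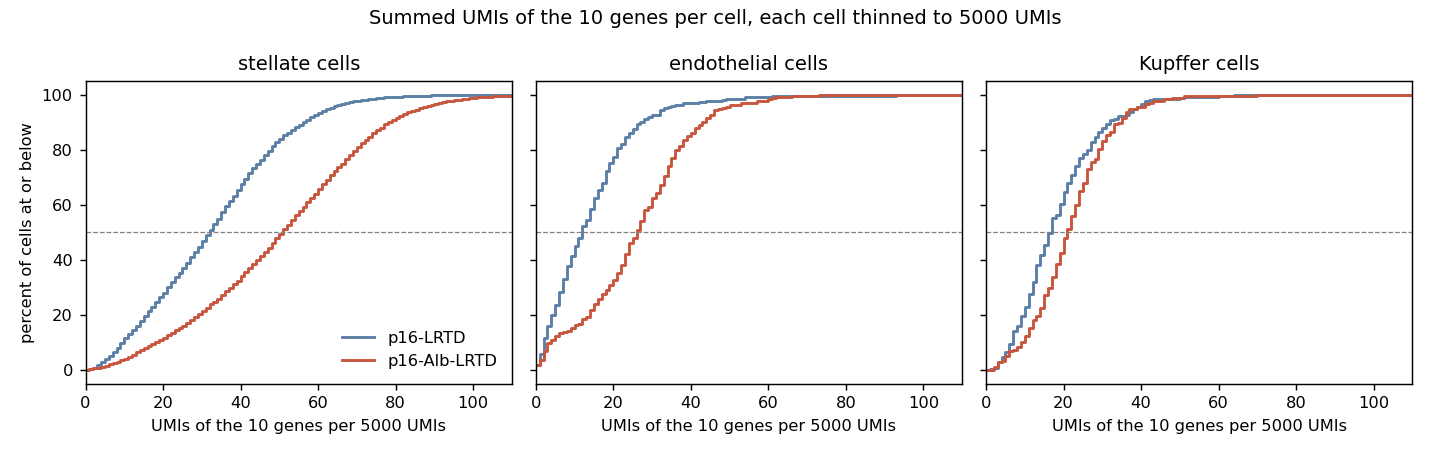
Cumulative share of cells (percent, vertical axis) by the summed UMIs of the 10 genes per cell thinned to 5000 UMIs (horizontal axis), for p16-LRTD (blue) and p16-Alb-LRTD (red), with a dashed line at 50% where the medians are read. The curves are far apart over most of the stellate range (medians 32 and 51), lie close at the low end of the endothelial range and meet at the high end of the Kupffer range.

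Shares of thinned cells with a UMI showed the same for single genes. In stellate cells Egr1 was detected in 71.8% (70.7 to 72.8) of cells in p16-LRTD and 84.4% (83.5 to 85.3) in p16-Alb-LRTD, and without thinning in 84.8% and 92.6%. Atf3 was detected in 32.8% (31.8 to 33.9) and 44.2% (43.0 to 45.4), and without thinning in 58.6% and 71.2%. Fosl2 was detected in 16.1% and 25.8%, Maff in 7.85% and 13.7%, and Ier2 in 58.4% and 65.4%. Fos (89.2% and 96.0%), Fosb (87.8% and 94.4%), Junb (88.5% and 95%), Jun (95.4% and 98.4%) and Jund (97.0% and 98.0%) were near their ceiling, so that for these the count per cell carried the difference.

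In endothelial cells Fos was detected in 70.6% (66.0 to 74.9) and 88.7% (84.4 to 92.1), Fosb in 51.0% (46.1 to 55.8) and 73.1% (67.6 to 78.2), and Maff in 9.33% (6.72 to 12.5) and 9.19% (6.09 to 13.2), intervals that overlap almost wholly. The endothelial intervals of Fosl2, Jund and Ier2 overlapped in part. In Kupffer cells Egr1 was detected in 35.3% (29.6 to 41.2) and 55.4% (47.7 to 62.8), and the intervals of Jund (90.3% and 97.2%) only just parted. Atf3 (53.2% and 57.1%), Maff (5.04% and 6.21%), Fos, Fosb, Fosl2, Jun, Junb and Ier2 had overlapping intervals in Kupffer cells. No class is known to lack these genes, so that the share owed to free RNA in the droplets could not be set from a negative cell type.

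Across stellate cells the genes varied together in part. Over 7836 and 6614 thinned cells, Pearson's r between 2 of the 10 genes had a median of 0.16 in p16-LRTD cells and 0.19 in p16-Alb-LRTD over 45 pairs and was above 0 for each pair. High values were those of Fos with Egr1 (0.50 and 0.48), Fos with Junb (0.49 and 0.49), Fos with Jun (0.46 and 0.44) and Junb with Egr1 (0.44 and 0.46). Each gene was also set against the sum of the other nine. Fos had 0.62 in both libraries, Jun 0.58 and 0.54, Junb 0.57 and 0.58, Egr1 0.51 and 0.53 and Fosb 0.49 and 0.46, whereas Fosl2 (0.11 and 0.12) and Maff (0.11 and 0.10) had low values, as sparsely counted genes do. The points are cells of 1 library that share its preparation, and r is given as a description.

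The genes outside the set whose UMIs were most like its sum over stellate cells were Socs3, a feedback inhibitor of cytokine signalling (0.48 and 0.49), Zfp36, which promotes decay of AU-rich mRNAs (0.47 and 0.46), Dusp1, a phosphatase of MAP kinases (0.42 and 0.40), and Btg2, an antiproliferative early gene (0.36 and 0.35). Pde4b, Rhob, Gm12840, Klf2 and Id3 were also among the 10 most alike, and 21 of 8278 genes compared had r above 0.2 in both libraries. All 10 had higher levels in p16-Alb-LRTD, with log2 ratios up to 0.99 for Gm12840. The most opposite genes were Gm42418 (-0.40 and -0.40) and AY036118 (-0.39 and -0.36), which overlap ribosomal RNA repeats and gain reads from it, followed by Cmss1 and by mitochondrial transcripts such as mt-Cytb (-0.21 and -0.23). Without the tenth of cells in each library and class that was highest in Gm42418 and AY036118, the median ratio of the 10 genes was 0.62 in stellate, 0.77 in endothelial and 0.47 in Kupffer cells.

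The ratio was next followed within ranges of stellate cells, since the libraries differed in their makeup. Cells with over 50 UMIs of Col1a1, Col1a2 and Col3a1 per 10000 made up 37.4% of stellate cells in p16-LRTD cells and 11.4% in p16-Alb-LRTD. The median ratio of the 10 genes was 0.72 in cells with under 10 collagen UMIs, 0.62 in those with 10 to 50 and 0.50 in those with over 50. All 10 genes were above 0 in each collagen range, and 6, 5 and 1 of them were at least 1.5-fold higher in these ranges, where 3.89%, 4.19% and 4.23% of all genes were. Fos was at 973 and 2023 CPM (1.06, 1.02 to 1.09) in the lowest range and at 1499 and 2178 CPM (0.54, 0.52 to 0.56) in the highest. Egr1 likewise was at 381 and 817 CPM (1.10, 1.05 to 1.15) in the lowest and 605 and 841 CPM (0.47, 0.45 to 0.50) in the highest. In p16-LRTD both genes thus stood higher in the collagen-rich than in the collagen-poor cells, whereas in p16-Alb-LRTD their levels in these ranges lay closer together. Jund went the other way, with ratios of 0.22 (0.19 to 0.26) and 0.36 (0.34 to 0.38).

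By depth, the median was 0.82 in cells under 10000 UMIs, 0.66 from 10000 to 20000 and 0.57 over 20000. By mitochondrial share, it was 0.70 under 1%, 0.63 from 1 to 2% and 0.57 over 2%. Every gene was above 0 in each of these ranges too, and the interval of Jund alone reached across 0, in cells under 10000 UMIs (0.07, -0.01 to 0.15). Stellate cells over the mitochondrial limit, 249 and 140 barcodes that enter no class, had lower sums of the 10 genes (3272 and 5101 CPM) and a median ratio of 0.66 with 9 of the 10 above 0. Barcodes past several marker thresholds, 245 and 221, had a median of 0.38, and those past none, 194 and 113, had -0.04 with 5 of the 10 genes above 0.

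**Figure D4:**
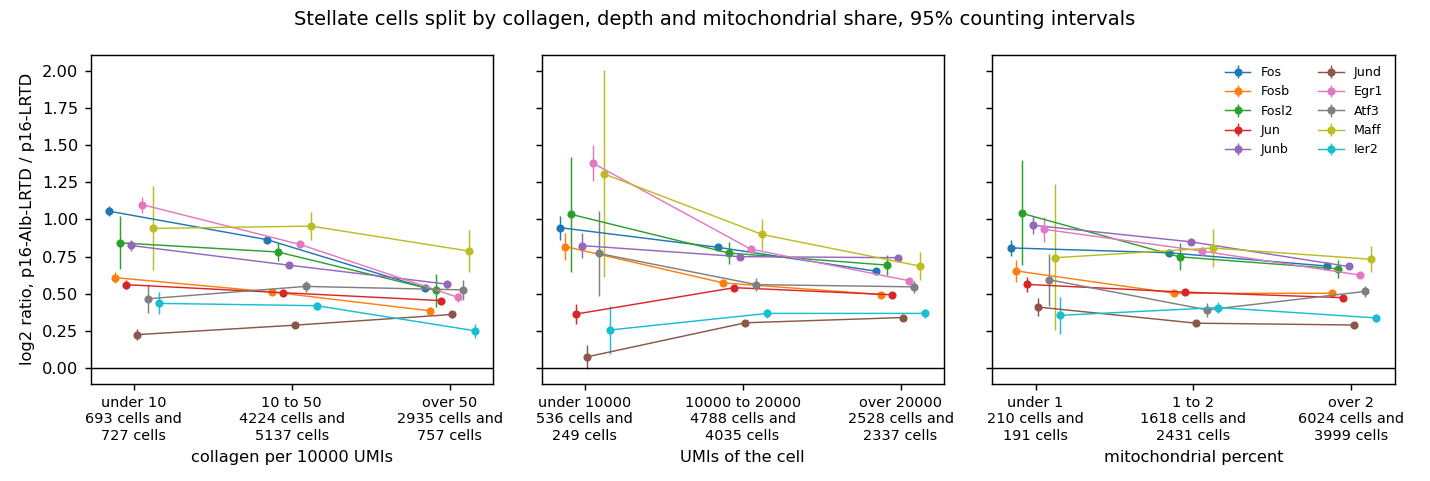
Log2 ratio of p16-Alb-LRTD over p16-LRTD (vertical axis) for each of the 10 genes in stellate cells split by collagen UMIs per 10000, by UMIs of the cell and by mitochondrial percent, with 95% counting intervals and the number of cells of p16-LRTD and p16-Alb-LRTD under each range. All points lie above 0, and the medians go from 0.72 to 0.50 over the collagen ranges.

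Genes around the set were described from lists, whose counts in stellate cells stand beside 3.03% of all genes at least 1.5-fold higher and 3.05% that much lower. Of the other AP-1 subunits and dimer partners, 17 of 21 were measured in stellate cells with a median log2 ratio of 0.20, 3 were at least 1.5-fold higher and 0 that much lower, and 16 lay above 0 and 1 below. Jdp2, a repressor that pairs with JUN proteins, was at 20.6 and 52.7 CPM (1.35), Ddit3, which encodes CHOP of the stress response, at 18.8 and 31.6 CPM (0.75), and Maf at 137 and 221 CPM (0.69). Of those above 0, Bach2 and Atf5 were lowest, both at a ratio of 0.02. Of the other immediate early genes, 37 of 43 were measured with a median of 0.42, 14 were at least 1.5-fold higher and 0 lower. The orphan nuclear receptors Nr4a3 (16.03 and 47.9 CPM, 1.58) and Nr4a1 (43.7 and 117 CPM, 1.42) and Csrnp1 (12.4 and 29.5 CPM, 1.25) were highest, and Ier5l (21.6 and 16.6 CPM, -0.38), Gadd45a (-0.22) and Trib1 (-0.22) were lowest.

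The signalling genes before the set were described in the same way. Of the MAP kinase phosphatases and other brakes, 11 of 14 were measured, with a median of 0.20, 10 above 0 and 0 past 1.5-fold either way, sizes that 3.03% and 3.05% of all genes reached. Dusp4 was at 4.58 and 6.61 CPM (0.53), Dusp1 at 765 and 1087 CPM (0.51) and Spry4 at 22.6 and 28.2 CPM (0.32), and the lowest were Spred1 (-0.09), Dusp6 (0.03) and Dusp5 (0.11). In endothelial cells 2 of 12 brakes were at least 1.5-fold higher and 3 that much lower, against 6.44% and 13.5% of all genes. Of the kinases and factors upstream of immediate early genes, 25 of 29 were measured in stellate cells, with a median of -0.02, 9 above 0 and again 0 past 1.5-fold. They ran from Mef2c (151 and 103 CPM, -0.55), Map2k6 (-0.30) and Srf (-0.24), the serum response factor, up to Mapk12 (0.22), Mrtfb, listed as Mkl2 (0.18), and Creb1 (0.18).

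The genes known as AP-1 targets spread on both sides of 0 in stellate cells, 6 above and 8 below. Of the list, 14 of 24 genes were measured with a median of -0.14. In stellate cells 1 was at least 1.5-fold higher and 4 that much lower, against 3.03% and 3.05% of all genes. Timp1, an inhibitor of matrix metalloproteinases, was at 55.5 and 19.4 CPM (-1.52), Lox, which crosslinks collagen, at 20.6 and 9.24 CPM (-1.16), Vegfa at 9.57 and 4.56 CPM (-1.07) and Spp1, a member of the list that was named after its value was seen, at 9.75 and 5.34 CPM (-0.87). The chemokine genes Cxcl1 (35.2 and 65.6 CPM, 0.90) and Ccl2 (250 and 333 CPM, 0.41) were highest. In Kupffer cells 17 of these genes were measured with a median of 0.46, 8 at least 1.5-fold higher and 3 lower (5.21% and 6.83% of all genes), and in endothelial cells 13 with a median of -0.14. Cxcl1 was at 13.8 and 78.2 CPM and Ccl2 at 76.4 and 427 CPM in Kupffer cells, ratios of 2.50 and 2.48, while Ccl2 was at 67.8 and 14.8 CPM (-2.19) in endothelial cells. In endothelial and Kupffer cells the medians were 0.18 and 0.16 for the other AP-1 subunits and partners, 0.15 and 0.43 for the other immediate early genes, -0.31 and 0.28 for the brakes and 0.07 and -0.02 for the upstream kinases and factors.

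**Figure D5:**
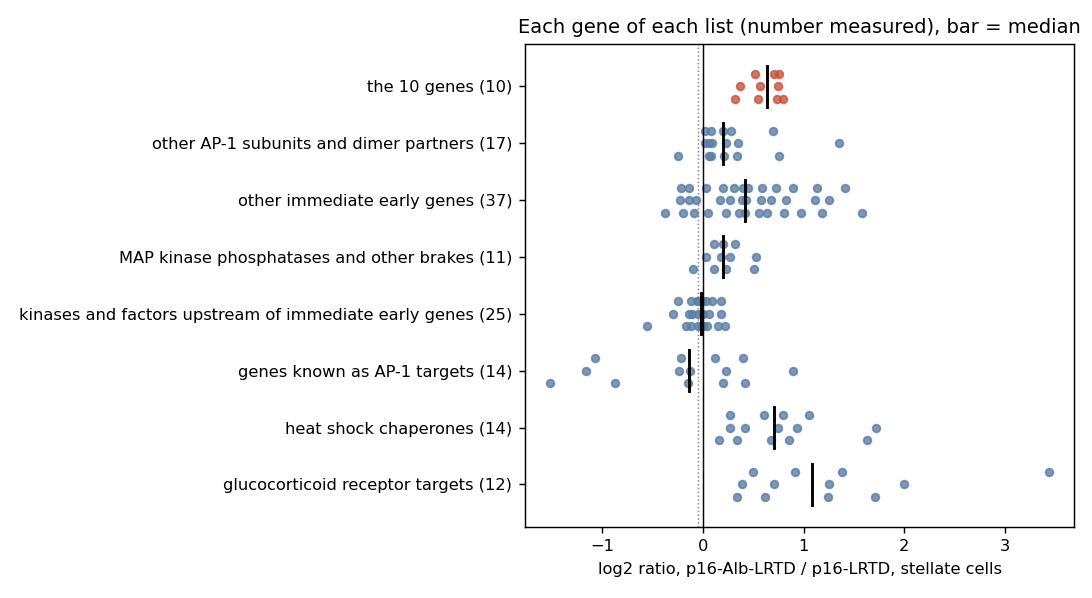
Log2 ratio of p16-Alb-LRTD over p16-LRTD in stellate cells (horizontal axis) for each measured gene of the 10-gene set (red) and of 7 lists (blue), with a black bar at each median and a dotted line at the median of all genes (-0.05). The 10 genes lie between 0.32 and 0.80, whereas the upstream kinases and factors centre on -0.02 and the AP-1 targets on -0.14.

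Stress genes and markers of other cells were followed beside these results. Heat shock chaperones, which are induced by warmth and cell stress, summed to 2635 and 4045 CPM in stellate cells, 2405 and 3163 CPM in endothelial cells and 2980 and 4180 CPM in Kupffer cells. In stellate cells all 14 were above 0, with a median of 0.71 and 9 at least 1.5-fold higher, against 3.03% of all genes. Hspa1b (4.63 and 15.3 CPM, 1.72), Hsph1 (1.63) and Dnaja1 (1.05) were highest, and Hspe1 (0.16), Dnajb4 (0.27) and Bag3 (0.27) lowest. Glucocorticoid receptor targets, a measure of stress hormone exposure, summed to 2015 and 3851 CPM in stellate cells, 1827 and 3053 CPM in endothelial cells and 1159 and 2048 CPM in Kupffer cells. All 12 were above 0 in stellate cells, with a median of 1.08 and 9 at least 1.5-fold higher, against the same 3.03% of all genes. Zbtb16 (59.5 and 647 CPM, 3.44), Fkbp5 (64.3 and 256 CPM, 1.995) and Angptl4 (1.71) were highest, and Tsc22d3 (0.34), Errfi1 (0.39) and Mt2 (0.50) were lowest. In endothelial and Kupffer cells the medians were 0.62 and 0.46 for the chaperones and 0.68 and 0.95 for the glucocorticoid receptor targets. The part of handling, of stress hormones or of the time from dissociation to capture in the ratios of the 10 genes was not tested.

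Median mitochondrial share was 2.47% and 2.14% in stellate, 2.81% and 3.01% in endothelial and 2.86% and 2.78% in Kupffer cells. The 9 hepatocyte markers summed to 31.1 and 19.4 CPM in stellate cells, with 0 of them at 0, to 98.3 and 109 CPM in endothelial cells, with 2 at 0 in each library, and to 39.7 and 33.8 CPM in Kupffer cells, with 0 and 1 at 0. Without the fifth of each class highest in these markers, the median ratio of the 10 genes was 0.62 in stellate, 0.79 in endothelial and 0.42 in Kupffer cells. The 2 proliferation markers summed to 39.1 and 5.62 CPM in stellate cells, and without cells that held a UMI of either, the stellate median was 0.62. Marker sums of other cells in stellate cells were 0.540 and 1.22 CPM for 5 lymphocyte genes, 0.414 and 0.344 CPM for 4 monocyte or neutrophil genes, 108 and 74.95 CPM for 4 fibroblast or mesothelial genes and 0.238 and 0.04 CPM for 2 cholangiocyte genes, and of these the monocyte or neutrophil list had 1 gene at 0 in each library. In endothelial cells the proliferation markers summed to 28.6 and 2.26 CPM, the fibroblast or mesothelial genes to 13.3 and 0.753 CPM, the lymphocyte genes to 8.94 and 0 CPM, with all 5 at 0 in p16-Alb-LRTD, and the monocyte or neutrophil genes to 0.650 and 7.78 CPM. Ly6c2 carried this last rise (0 and 7.28 CPM). Ccr2 was at 0.162 and 0.251 CPM, S100a8 was lower in p16-Alb-LRTD (0.487 and 0.251 CPM) and S100a9 was at 0 in both libraries. In Kupffer cells 6 endothelial markers summed to 474 and 676 CPM, with 0 of them at 0, and the proliferation markers to 31.3 and 21.0 CPM. Cdh5 (361 and 530 CPM) and Pecam1 (62.7 and 125 CPM) carried the rise of the endothelial sum. Lyve1 (22.7 and 5.81 CPM), Fcgr2b (25.1 and 11.8 CPM) and Egfl7 (1.35 and 0.671 CPM) were lower in p16-Alb-LRTD, and Clec4g was at 1.51 and 1.79 CPM. The part of such cells in the ratios of the 10 genes was not tested.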

How the data were processed

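The deposited values are raw UMI counts by gene and by barcode, made with Cell Ranger 7.0.1 on mm10, as whole-number counts with no normalization. Barcodes over 5% mitochondrial UMIs, with fewer than 2000 or more than 7000 genes or with more than 50000 UMIs were left out, after the methods of the study. No doublet caller was run, and kept barcodes past more than 1 marker threshold (245 and 221) were left out of the classes, a step added to the thresholds.

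For each library, the counts of all cells of a class were summed and divided by its total (CPM). Intervals at 95% were exact, by Poisson for counts, by the conditional binomial for ratios and by Clopper-Pearson for shares, except that those of differences between classes are normal approximations of the counting error. The interval of a median is the median of the lower and of the upper bounds of the 10 genes. Genes with a mean of at least 5 CPM in a class entered all-gene values. For values per cell, cells were thinned to 5000 UMIs each, without replacement. The ratio and its interval were tried on simulated Poisson counts at the depth of each class. Such counts follow the model that the interval assumes, so this check covers no spread between cells or mice. Python 3.11.15 with NumPy 2.4.6 and SciPy 1.17.1 was used, and edgeR 4.0.16 in R 4.3.3 for TMM factors. Of 31054 features, 31011 matched GENCODE vM21 by identifier.

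All 10 genes were named, with the 3 highest and 3 lowest ratios of each list in stellate cells and the 10 genes most alike by the lower of 2 correlations, 1 per library. Some genes that this rule takes are not reported here. The genes and lists were chosen with earlier results of these data known. Alternatives changed the limits, the thresholds, the scaling, the depth range and the cells kept.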

Additional observations from a re-analysis of the deposited data

Results flagged for a closer look

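Maff had a log2 ratio of -0.53 in endothelial cells and ratios above 0 in stellate (0.80) and Kupffer cells (0.95), so that the sign differed by class. The difference was not tested across replicates, of which there were none, and it rests on 216 and 97 endothelial UMIs. Over the alternatives the endothelial ratio ran from -0.596 to -0.26. It was -0.26 in cells of 10000 to 30000 UMIs and -0.27 with barcodes past several thresholds kept. Over all deposited barcodes it was -0.575, and with the mean of per-cell CPM -0.592. Maff was detected in 9.33% and 9.19% of thinned and in 24.7% and 25.1% of unthinned endothelial cells of p16-LRTD and p16-Alb-LRTD.

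The summed level of the 10 genes was also higher in p16-Alb-LRTD in some barcodes that belong to no class and entered the ratios only under alternatives that kept them. Kept barcodes past more than 1 marker threshold had 5695 CPM in p16-LRTD against 8144 CPM in p16-Alb-LRTD, and stellate barcodes over the mitochondrial limit had 3272 and 5101 CPM, with 10 and 9 of the 10 genes above 0. Kept barcodes past no threshold had 5202 and 4971 CPM, with 5 of the 10 above 0.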

How the results depend on the processing

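No paired analysis was possible because only 1 library was made per genotype. The median log2 ratio of the 10 genes stayed above 0 in every class under the 13 alternatives run, from 0.62 to 0.68 in stellate, 0.66 to 0.89 in endothelial and 0.42 to 0.54 in Kupffer cells. In stellate cells it was 0.68 with TMM scaling, with median-of-ratios scaling and with the mean of per-cell CPM, beyond the counting interval of 0.62 to 0.66. In endothelial cells it was 0.87 with TMM and 0.89 with median-of-ratios scaling, and 0.66 when barcodes past several thresholds were kept in each class. These scalings raised each ratio by 0.04 and 0.05 in stellate, 0.08 and 0.10 in endothelial and 0.05 and 0.06 in Kupffer cells. The number of genes at least 1.5-fold higher ran from 5 to 7 in stellate and from 2 to 5 in Kupffer cells, where it was 2 when barcodes past several thresholds were kept, and was 6 in endothelial cells under each of the 13. With a minimum of 1 in place of 5 CPM, the share of all genes at least 1.5-fold higher was 9.83% in endothelial and 8.07% in Kupffer cells, against 6.44% and 5.21%. At 2-fold the numbers were 0, 2 and 1 in stellate, endothelial and Kupffer cells. Ier2 in endothelial cells reversed, to -0.051 without the upper limits on genes and UMIs and to -0.031 over all deposited barcodes. Of 130 alternative values of single genes in each class, 130 were above 0 in stellate, 115 in endothelial and 130 in Kupffer cells. The alternatives of leaving out shared barcodes and of leaving out cells high in Gm42418 and AY036118 were chosen after the data had been seen. Depth limits Maff and Fosl2 outside stellate cells, where they rest on 75 to 495 UMIs a library. The spread between mice is unknown.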
